A study of Mus musculus with 16 samples.

Results

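The comparison described here set 25 ng/ml Activin against DMSO vehicle in mouse embryonic stem (ES) cells, to ask what added ligand does above the endogenous Nodal/Activin signaling that returns once an inhibitor is washed out. It was made up of 8 of the 16 arrays of the series, 4 with Activin and 4 with DMSO, chosen by treatment label and read over all 24606 probes. The cells were E14TG2a, an HPRT-deficient ES line, and every culture was first held for 6 h in KSR medium (based on a serum replacement) with SB-431542 at 10 µM (hereafter SB), a blocker of the kinases of the type I receptors that Activin and Nodal use. The following 18 h were spent with 25 ng/ml Activin, with DMSO at a dilution of 1 in 5000, with KSR medium alone, or with 10 µM SB. Each group was 4 cultures of the same line at passages 20, 21, 23 and 24, numbered here as replicates 1 to 4, so the Activin and DMSO cultures were paired by passage and nothing was measured in a second line. The treated group therefore shared with its controls the line, the medium and the SB pretreatment, and differed in the added ligand. The labels do not say whether it also received vehicle.

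Activin and Nodal are ligands of the TGFβ family that bind type II and type I serine/threonine kinase receptors, upon which Smad2 and Smad3 are phosphorylated, join Smad4 and enter the nucleus to regulate transcription with partners such as FoxH1. Nodal needs the co-receptor Cripto, encoded by Tdgf1, while Activin does not. The pathway restrains itself, since its target genes include those of the secreted antagonists Lefty1 and Lefty2 and of intracellular inhibitors. ES cells make Nodal themselves, and in the embryo graded amounts of the signal pattern the mesoderm and endoderm and the left-right axis.

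Values are log2 intensities after background correction and quantile normalization, and a change is Activin minus DMSO on that scale, with its standard error (SE) or 95% interval from a limma fit in which passage was a block. A probe was called when its p-value, adjusted over all probes by the Benjamini-Hochberg method, was under 0.05, and its signal was taken as above background where it exceeded the 95th percentile of 1191 chemosensory receptor probes on the same array. On this rule 9900 to 10482 probes of an Activin or DMSO array were above background. The ES cell markers Pou5f1 and Nanog were above background on 8 of 8 arrays, and all 8 measured ES cell markers were. Hprt, which is disrupted in this line, was above background on 0 of 8. Of 11 measured fibroblast markers 2 were above background on 4 or more of the 8 arrays (Twist1 and Thy1), and the collagen genes Col1a1, Col1a2 and Col3a1 were above background on 0 of 8. RNA came from whole cultures, so fewer cells of a type and less RNA per cell cannot be told apart.

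Added Activin raised few genes, and all the calls were upward. Of 24606 probes 9 were called (0.0366%), 9 higher and 0 lower. The 6 named genes among them were Lefty2, Lefty1, Fgf15, Chst15, Spsb1 and Zfp819, and 3 probes had no gene symbol. The changes ran from 0.41 to 1.56, and each of the 9 was higher with Activin at 4 of 4 passages with no overlap between the groups. Over the whole array all 4 Activin values lay above all 4 DMSO values for 304 probes (1.24%) and below them for 279 (1.13%). By direction alone, 1691 probes (6.87%) were higher and 1710 (6.95%) lower with Activin at 4 of 4 passages. Without regard to adjustment, 1306 probes (5.31%) had p under 0.05. Without the passage block 5 probes were called, and Fgf15, Zfp819 and 2 of the probes without symbol were not among them.

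**Figure D1:**
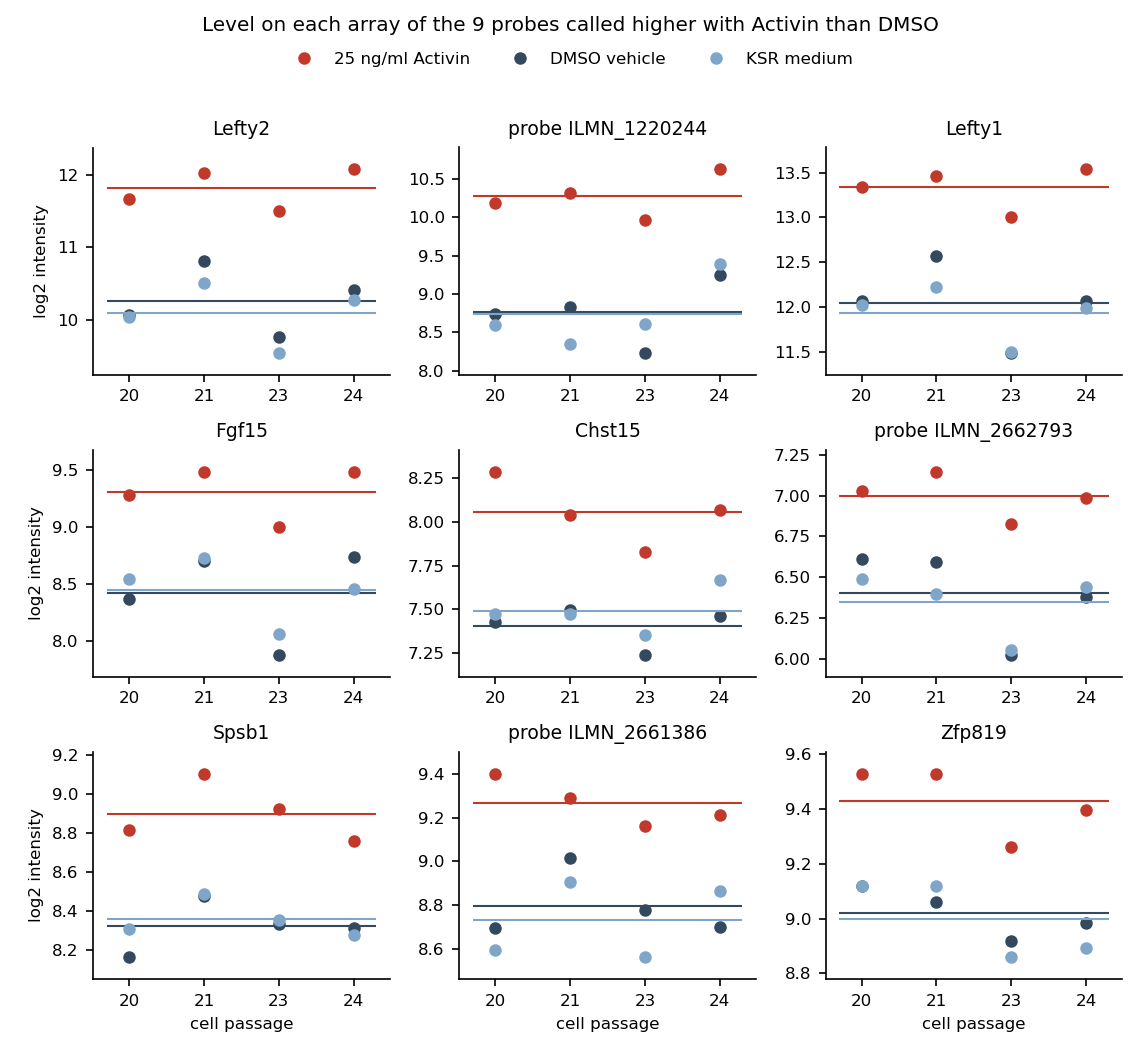
Log2 intensity (vertical axis) by cell passage (horizontal axis) of the 9 probes called higher with Activin than with DMSO, 1 point per array and a line at each group mean of 4. In every panel the 4 Activin points lie above the 4 DMSO and the 4 KSR points.

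Of the named genes, Lefty2 and Lefty1, which encode antagonists of the pathway, had the largest changes. Lefty2, which encodes a secreted protein that blocks Nodal and its co-receptor, stood at 11.67, 12.03, 11.50 and 12.08 with Activin (passages 20, 21, 23 and 24) and at 10.06, 10.81, 9.75 and 10.41 with DMSO. The lowest Activin array was above the highest DMSO array, and the change of 1.56 (SE 0.10, 2.94-fold, adjusted p = 3.58e-08) was the largest of any probe. Lefty1, a nearby gene for a closely related antagonist, stood at 13.34, 13.46, 13.01 and 13.54 with Activin and at 12.06, 12.57, 11.49 and 12.07 with DMSO. Its groups did not overlap either, and it rose by 1.29 (SE 0.10, 2.44-fold, adjusted p = 1.81e-07). The sequences of these paralogs are alike, and cross-hybridization between their probes was not tested. A probe without symbol, ILMN_1220244, moved nearly as far, at 10.19, 10.32, 9.96 and 10.63 with Activin and 8.74, 8.83, 8.23 and 9.25 with DMSO (change 1.51, SE 0.13, 2.85-fold, adjusted p = 8.67e-07). Its gene could not be named from the annotation used here.

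Both Lefty genes varied with passage in the vehicle cultures. In DMSO they were highest at passage 21 and lowest at passage 23, with an SD over the 4 arrays of 0.46 for Lefty2 and 0.44 for Lefty1. With Activin the SD was 0.28 and 0.23. The rise of Lefty2 was 1.61, 1.21, 1.74 and 1.67 at the 4 passages in order, and that of Lefty1 was 1.28, 0.89, 1.52 and 1.47. The smallest rise thus fell at the passage with the highest vehicle level and the largest at that with the lowest, a description over 4 passages in which the DMSO value enters both quantities. Fgf15 had its lowest vehicle level and its largest rise at passage 23 too. Over all 9 called probes the median rise was 0.86 at passage 20, 0.63 at passage 21, 0.81 at passage 23 and 0.61 at passage 24. There was 1 array per group and passage, so a difference between passages was not tested.

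Fgf15, a fibroblast growth factor gene of the early embryo and, in the adult, an intestinal hormone gene that restrains bile acid synthesis, was the next in size. It stood at 9.28, 9.48, 9.00 and 9.49 with Activin and at 8.37, 8.70, 7.88 and 8.74 with DMSO. The groups were separate, and the change of 0.89 (SE 0.10, 1.85-fold) passed with the passage block (adjusted p = 5.85e-05) and missed the threshold without it (adjusted p = 0.101). Chst15, which encodes a sulfotransferase that acts on chondroitin sulfate, stood at 8.29, 8.04, 7.83 and 8.07 with Activin and at 7.42, 7.50, 7.24 and 7.46 with DMSO, a change of 0.65 (SE 0.09, 1.57-fold, adjusted p = 0.00129). Spsb1 encodes a SOCS-box protein that recruits substrates to a ubiquitin ligase, among them the type II TGFβ receptor. Its values were 8.81, 9.10, 8.92 and 8.76 with Activin and 8.16, 8.47, 8.33 and 8.31 with DMSO, close together within each group, and it rose by 0.58 (SE 0.07, 1.49-fold, adjusted p = 2.29e-04).

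The remaining calls held under fewer of the alternative settings. Zfp819, a zinc-finger gene, stood at 9.53, 9.53, 9.26 and 9.40 with Activin and 9.12, 9.06, 8.92 and 8.98 with DMSO, a rise of 0.41 (SE 0.07, 1.33-fold, adjusted p = 0.0391). The rise was of like size at each passage, 0.34 to 0.47, yet the call was lost on leaving out any 1 Activin or DMSO array (highest adjusted p over all alternatives, 0.672, without the block). The probe ILMN_2661386 rose by 0.47 (adjusted p = 0.0448) and likewise lost its call without any 1 of the 8 arrays (highest adjusted p over all alternatives, 0.495). The probe ILMN_2662793 rose by 0.60 (adjusted p = 0.00711) but was above background on 1 of 4 Activin arrays and 0 of 4 DMSO arrays, so no fold is given for it. Its call was lost without Activin replicate 2 or 3 or DMSO replicate 3 or 4.

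**Figure D2:**
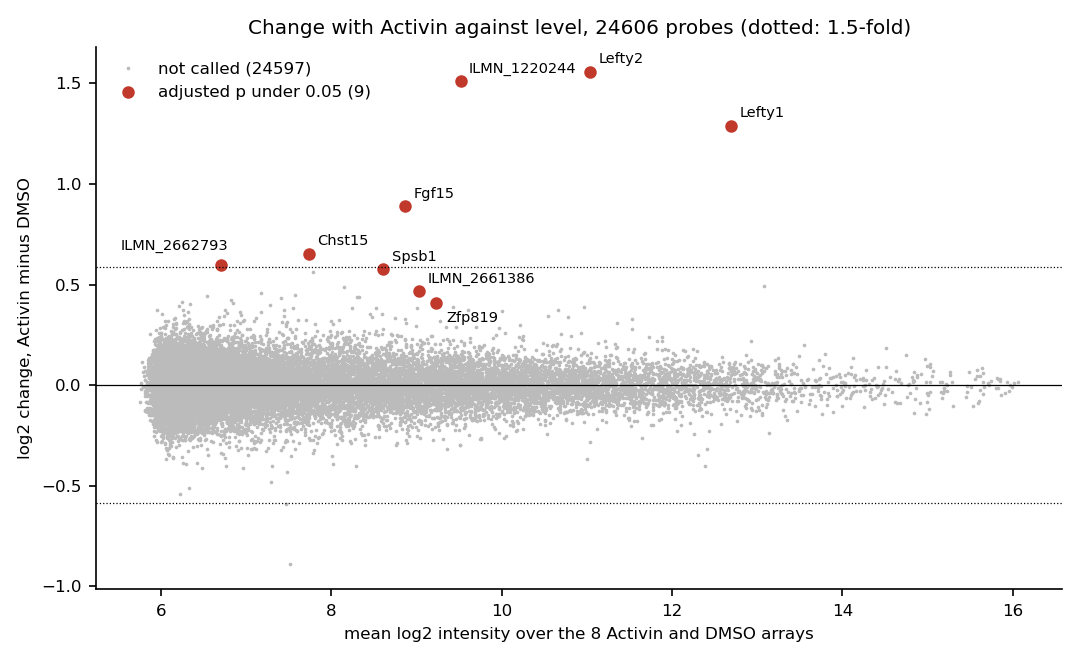
Change with Activin (log2, vertical axis) against the mean log2 intensity over the 8 Activin and DMSO arrays (horizontal axis), 1 point for each of 24606 probes, with 1.5-fold marked by dotted lines. The 9 called probes (red) all lie above 0, and Lefty2, Lefty1 and ILMN_1220244 stand apart from the rest, at 1.29 to 1.56.

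By size alone, 8 probes (0.0325%) changed by more than 1.5-fold, 6 higher and 2 lower. This count rested on the background correction: it was 59 (33 higher, 26 lower) with an offset of 16, 268 (141 and 127) with a floor of 16 in place of the correction and 36 (25 and 11) with the authors' normalized values. The 6 that were higher had all been called, with Spsb1 just short of that size. The 2 that were lower, for Fbxw5 (change -0.89, adjusted p = 0.882) and Sf1 (change -0.59, adjusted p = 0.529), are named after their values were seen, and each was lower at 3 of 4 passages and did not pass. Against KSR medium the same probes had changes of 0.43 for Fbxw5 and -0.11 for Sf1.

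Promoter sequences were searched for letters that factors of the pathway recognize. Smad3 and Smad4 contact the short letters GTCT (AGAC on the other strand), and FoxH1 recognizes AATNNACA (TGTNNATT). Of the 6 named genes 3 had a window in the RefSeq promoter table used here (GRCm38.p6), which holds 250 bases before and 50 after a transcription start. The windows of Spsb1 (chr4:149954957-149955256, minus strand), Chst15 (chr7:132317179-132317478, minus strand, the first of 2 starts) and Zfp819 (chr7:43606919-43607218, plus strand) are shown 5′ to 3′, with GTCT, AGAC and FoxH1 letters in capitals.
Spsb1: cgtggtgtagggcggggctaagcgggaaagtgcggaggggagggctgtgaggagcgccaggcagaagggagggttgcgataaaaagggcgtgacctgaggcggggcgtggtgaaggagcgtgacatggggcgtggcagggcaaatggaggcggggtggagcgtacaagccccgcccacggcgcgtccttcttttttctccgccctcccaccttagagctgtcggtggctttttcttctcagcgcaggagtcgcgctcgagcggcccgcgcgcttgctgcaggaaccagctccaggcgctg
Chst15: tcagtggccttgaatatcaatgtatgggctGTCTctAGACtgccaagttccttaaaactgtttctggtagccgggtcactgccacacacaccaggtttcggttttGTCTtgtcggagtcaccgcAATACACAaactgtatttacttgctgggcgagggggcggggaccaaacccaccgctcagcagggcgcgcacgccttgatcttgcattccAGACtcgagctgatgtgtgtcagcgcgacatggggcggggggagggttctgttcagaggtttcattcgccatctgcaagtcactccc
Zfp819: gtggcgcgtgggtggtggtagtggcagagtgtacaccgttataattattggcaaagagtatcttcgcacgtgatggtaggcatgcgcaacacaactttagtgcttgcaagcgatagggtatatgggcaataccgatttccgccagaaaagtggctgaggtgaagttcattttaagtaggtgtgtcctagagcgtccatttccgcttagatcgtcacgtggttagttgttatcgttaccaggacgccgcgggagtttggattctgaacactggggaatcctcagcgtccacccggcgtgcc
The Chst15 window shown held GTCT or AGAC 4 times, CAGAC or its complement GTCTG once, and the FoxH1 letters once. The window of its second start, not shown, held GTCT or AGAC 2 times, CAGAC or GTCTG once and the FoxH1 letters 0 times. The Spsb1 and Zfp819 windows held none of them. GTCT or AGAC was in 88.0% of all 32851 windows, CAGAC or GTCTG in 49.6% and the FoxH1 letters in 12.2%. Neither the palindrome GTCTAGAC (0.213% of all windows) nor the GC-rich GGCGCC (11.9%) was in any of the 3. A match is a string of letters and not a binding site, and windows without one say nothing of elements farther away.

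KSR medium alone, a control without vehicle, served as a background for the comparison. Between DMSO and KSR medium 0 of 24606 probes were called by limma (0%), and 1231 had an unadjusted p under 0.05. Against KSR medium Activin raised 17 probes and lowered 0 (0.0691%), among them all 9 called against DMSO (9 of 9, and 9 of 17). Both comparisons use the same Activin arrays. The count was 10 without Activin replicate 2, 10 without the passage block, 6 with an offset of 16, and 27, of which 4 were lower, with dim probes removed. Lefty2 was 1.73 higher than in KSR medium, Lefty1 1.40, Fgf15 0.86, Chst15 0.57, Spsb1 0.54 and Zfp819 0.43, each with an adjusted p of 0.0103 or lower. Between the 2 controls these 6 genes differed by 0.17 (Lefty2) or less.

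Against the 8 arrays of both controls as 1 group, 27 probes were called (0.11%), 24 higher and 3 lower. All 9 called against DMSO were among them, but this comparison reuses the same Activin and DMSO arrays. The count of 27 leaned on the number of arrays: it was 17, 11, 17 and 15 without Activin replicates 1, 2, 3 and 4, and 12 without the passage block. Trh, the gene of the precursor of thyrotropin-releasing hormone, stood at 13.11, 14.02, 12.77 and 13.41 with Activin and 12.60, 13.53, 12.36 and 12.85 with DMSO. Its groups overlapped, yet at each passage the Activin array was higher, by 0.42 to 0.56. The change was 0.49 against DMSO (adjusted p = 0.206), 0.70 against KSR medium (adjusted p = 0.00775) and 0.60 against both (adjusted p = 0.00695). Tmem63a, an ion channel gene, rose by 0.53 against both (adjusted p = 0.0241), with 8.32, 8.44, 8.40 and 8.43 for Activin and 7.74, 8.17, 7.75 and 7.98 for DMSO, which did not overlap. It did not pass against DMSO alone (adjusted p = 0.229). Of 25 alternative settings the call against both controls passed in 17 for Trh, where it was lost without the passage block, and in 9 for Tmem63a.

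Further rises against both controls came from genes of varied function. Irgm1, an immunity-related GTPase gene, rose by 0.52 (adjusted p = 0.00695). Its DMSO replicate 1, at 7.39, was within the range of the Activin arrays (7.33 to 7.61), and it was above background on 1 of 4 DMSO arrays. Plekha2, which encodes a phosphoinositide-binding adaptor, rose by 0.47 (adjusted p = 0.00474), and Radil, a gene of a Rap effector in cell adhesion and migration, by 0.45 (adjusted p = 0.0193). Pgpep1, a peptidase gene, and S100a10, which encodes the partner of annexin A2, rose by 0.37 and 0.40 (adjusted p = 0.0157 and 0.0349). None of these 5 genes passed against DMSO alone. Of 25 alternative settings the call against both controls passed in 18 for Plekha2, 16 for Irgm1, 15 for Pgpep1, 13 for Radil and 7 for S100a10, and without the passage block it was lost for all but Plekha2. Hoxb13 and Drd1 were also called higher, but they were above background on 1 and 0 of the 8 arrays.

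For 4 of the genes called higher the brightest probe was not the one called. The called probe of Fam3c, which encodes a secreted factor, had values of 9.80 ± 0.05 with Activin and 9.42 ± 0.03 with DMSO (mean ± SD, n = 4) and rose by 0.42 against both (adjusted p = 0.00443), whereas a brighter probe gave 0.19 (adjusted p = 0.631). Copz2, for a coatomer subunit, gave 0.42 and 0.13, and Ubr7, for a ubiquitin ligase, 0.41 and 0.18. Resf1 gave 0.44 at the called probe and -0.06 and -0.01 at 2 brighter ones. For these genes the probes disagreed in size, and for Resf1 in sign.

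Fewer genes were called lower than higher against both controls. Tfap2c, a transcription factor gene of the trophectoderm and of germ cell precursors, stood at 10.62, 11.12, 10.68 and 10.84 with Activin and at 11.08, 11.41, 11.07 and 11.15 with DMSO. The groups overlapped across passages, but Activin was lower at each passage, by 0.30 to 0.46. The change was -0.37 against DMSO (adjusted p = 0.182) and -0.36 against both controls (adjusted p = 0.0264), and its 2 dimmer probes gave -0.31 and -0.10. Sox21, a gene of a repressor of the SoxB group, stood at 9.07, 9.29, 9.06 and 9.36 with Activin and at 9.44, 9.60, 9.37 and 9.65 with DMSO, with no overlap. It changed by -0.32 against DMSO (adjusted p = 0.206) and by -0.33 against both (adjusted p = 0.0376), and its other probes gave -0.27 and -0.13. The calls of Tfap2c and Sox21 each passed in 6 of 25 alternative settings. The third probe called lower, for Mastl, was above background on 0 of the 8 arrays, and a brighter probe gave -0.04.

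**Figure D3:**
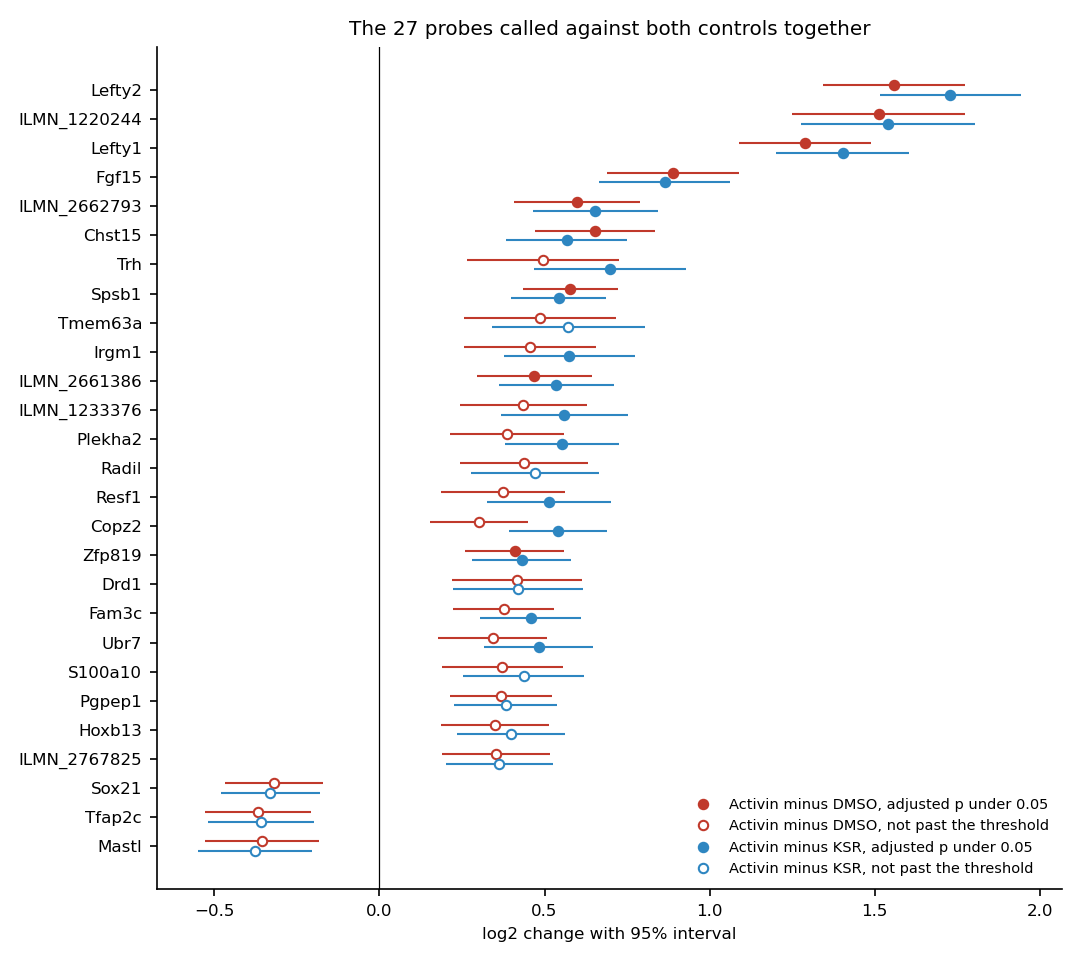
The 27 probes called for Activin against both controls together, with the change against DMSO (red) and against KSR medium (blue) on the log2 scale and 95% intervals. Filled points passed the threshold in that comparison alone (9 against DMSO, 17 against KSR medium), and the 2 values of a probe lie on 1 side of 0 throughout.

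Among genes above background and changed in 1 direction at all 4 passages, the 12 largest rises and the 12 largest falls were set beside the second control. They were picked by their change against DMSO, and the comparison with KSR medium uses the same Activin arrays. A smaller change against KSR medium can thus come from the picking alone. The 12 rises lay between 0.40 and 1.56 against DMSO and between 0.29 and 1.73 against KSR medium, and 6 were called against DMSO. Of the others, Cidea, a lipid droplet gene, had a change of 0.56 (adjusted p = 0.232), with 1.17 at passage 20 and 0.11 at passage 21. Tppp3, a tubulin-binding protein gene, had 0.40 (adjusted p = 0.182). The 12 falls lay between -0.48 and -0.31 against DMSO but between -0.40 and 0.03 against KSR medium, and 0 passed against DMSO. The farthest below DMSO was Dnajc15, a mitochondrial cochaperone gene, with 7.02, 7.24, 6.83 and 7.12 for Activin and 7.63, 7.48, 7.12 and 7.91 for DMSO (change -0.48, adjusted p = 0.182). Its KSR arrays, at 7.04, 7.25, 6.81 and 7.05, were close to the Activin arrays, but both groups lay near background. The gene passed the background filter largely through its DMSO arrays, so the size of its fall is uncertain. Nat9 and 2700081O15Rik had changes of 0.03 and -0.03 against KSR medium as well.

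Other falls had the same sign against both controls, but none of those that follow was called. Mt1, a metallothionein gene, had -0.40 against DMSO and -0.33 against KSR medium, Slc30a2, for a zinc transporter, -0.32 and -0.40, and Zc3h3, for a zinc-finger protein, -0.43 and -0.30. Slc2a1, the glucose transporter gene, had -0.32 and -0.15, Ddit3, a stress-response transcription factor gene, -0.31 and -0.20, and Zbtb10, another zinc-finger gene, -0.35 and -0.24. Ccdc136 had -0.39 against DMSO (adjusted p = 0.197). Adjusted p-values against DMSO ran from 0.182 to 0.854 over the 12 falls.

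**Figure D4:**
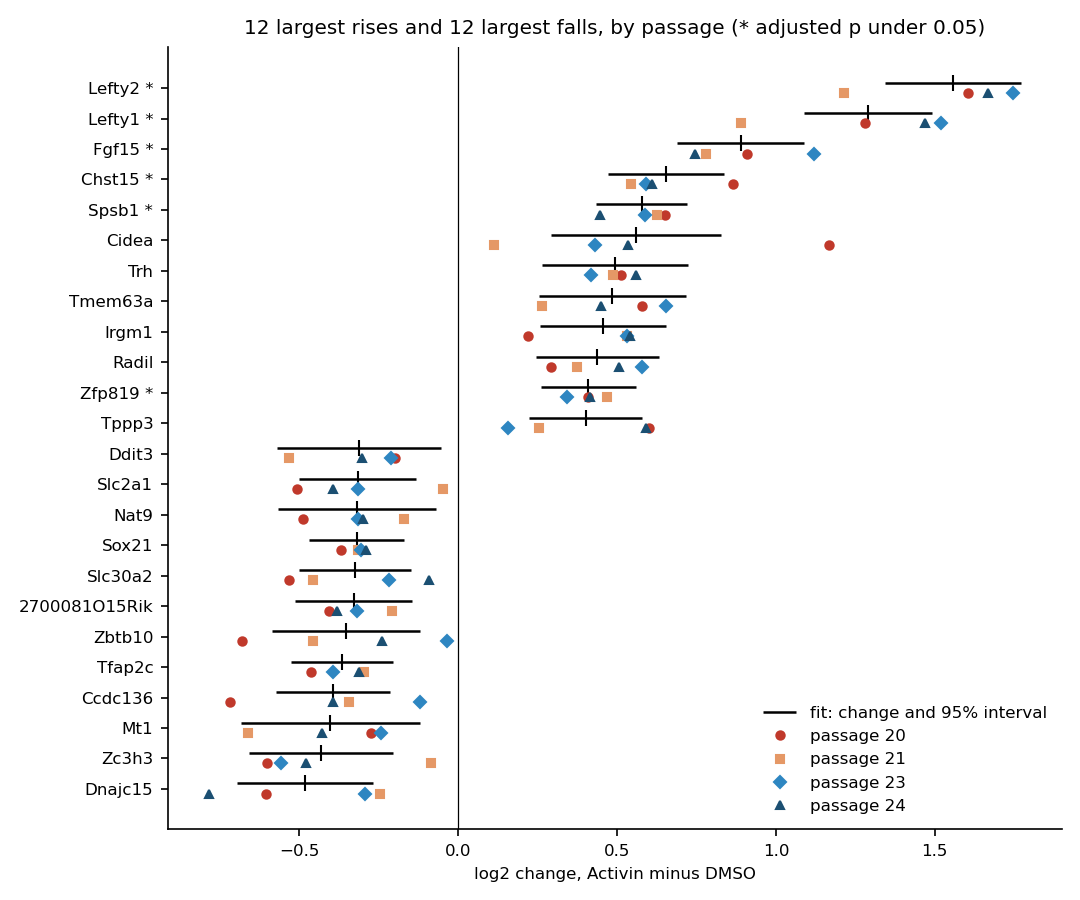
Change with Activin (log2, horizontal axis) at each of the 4 passages (coloured symbols) and from the fit with its 95% interval (black) for the 12 largest rises and the 12 largest falls. Stars mark the 6 genes called. Lefty1 and Lefty2 moved least at passage 21, and Cidea ranged from 0.11 to 1.17.

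The SB arrays were set beside these genes through SB against KSR medium, which shares no array with Activin against DMSO. Both comparisons come from the same fit and share its estimate of the spread of each probe, so their calls are not independent. For SB against KSR medium 159 probes were called (0.646%), 56 higher and 103 lower. Of the 9 probes called with Activin, 8 were called lower with SB, the exception being the dim ILMN_2662793. Of the 12 largest rises 11 were called lower with SB (all but Tppp3) and of the 12 largest falls 3 were called higher (Mt1, Slc30a2 and Tfap2c). The changes differed in size by gene. Zfp819 had -1.01 with SB and 0.41 with Activin, and Spsb1 had -0.81 and 0.58. Lefty1 was above background on 1 of 4 SB arrays and at least 26.7-fold lower with SB. Lefty2 and Chst15 were above background on none of them, at least 7.66-fold and at least 1.26-fold lower.

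Through the pathway itself, the ligand genes showed no called change. Nodal stood at 11.59, 11.58, 11.42 and 11.43 with Activin and at 11.30, 11.33, 11.22 and 10.93 with DMSO, which did not overlap. Its change of 0.31 (95% interval 0.15 to 0.48, 1.24-fold) had an adjusted p of 0.392, and 1.24% of all probes were separated in that direction. Of the 10 measured ligand genes 4 were above background. Gdf1 had a change of 0.15, Gdf3, a ligand gene highly expressed in ES cells, had 0.04 (-0.11 to 0.20), and Inhbb, which encodes an Activin subunit, had -0.12. Of 10 receptors and co-receptors 4 were higher and 6 lower, 0 called, between -0.14 and 0.17. Tdgf1 had 0.14 (-0.06 to 0.34), the type I receptor genes Acvr1b and Tgfbr1 had -0.08 and -0.12, and the type II receptor gene Acvr2b had -0.06.

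Among 9 Smads and nuclear partners 0 were called. Smad2 had a change of -0.07 (-0.22 to 0.08) and Smad4, the common partner, 0.01 (-0.13 to 0.16). Smad3 stood at 8.72, 8.97, 9.00 and 8.95 with Activin and at 9.04, 9.12, 9.30 and 9.23 with DMSO. It was lower at 4 of 4 passages with no overlap, yet the change of -0.26 (-0.42 to -0.11) had an adjusted p of 0.529, and 1.13% of all probes were separated in that direction. Foxh1 had 0.10 (-0.13 to 0.33).

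Inhibitors were higher by count, with few calls. Of 12 extracellular antagonists 10 were higher, and 2 were called, Lefty1 and Lefty2. The others above background came down to Fstl1, a follistatin-like gene, with a change of 0.24 (adjusted p = 0.632). Of 11 intracellular inhibitors 7 were above background, 10 were higher, 1 had p under 0.05 before adjustment and 0 were called. The median change was 0.12 against DMSO and 0.05 against both controls, with Smurf1, Skil, Ski and Tgif2 at -0.02 to -0.01 against KSR medium. This stands beside 7716 of 15967 genes higher than with DMSO, 6 called, 812 with p under 0.05 before adjustment and a median of -0.00 over all genes. Pmepa1, which encodes a membrane protein that sequesters Smads, stood at 7.85, 7.84, 8.10 and 8.03 with Activin and at 7.49, 7.64, 7.90 and 7.58 with DMSO. The groups overlapped while each passage was higher, as for 6.87% of all probes. The change was 0.30 (0.14 to 0.47, adjusted p = 0.433). Smurf2, a ubiquitin ligase gene, had 0.14, and Ski, a Smad corepressor gene, 0.12. Smad7 and Skil were above background on 0 of the 8 arrays, where their changes of 0.17 and 0.12 cannot be read as levels.

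Target genes known from other work leaned the same way. Of 17 measured, 16 were higher, 2 were called (the Lefty genes), 5 had p under 0.05 before adjustment and the median change was 0.14. The members share genes with the lists of inhibitors and antagonists, and genes of a list are not independent. Ccn2, a matricellular protein gene, had 0.23 and Junb, an AP-1 subunit gene, 0.15, without passing. Only Bambi, a pseudoreceptor gene at background on all 8 arrays, was lower, at -0.12. Against KSR medium Bambi had a change of 0.11, so its sign was not the same in both comparisons. Against KSR medium the members without a call were not all higher either, with Tagln, Skil, Ski, Ltbp3 and Cer1 at -0.11 to -0.01.

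Of the 9 measured genes that the study names for Activin, a list drawn up on these same samples and so no independent evidence, 8 were higher, 5 were called against DMSO and 7 against both controls. Those not called against both were Msmb (0.18), which was above background on 0 of the 8 arrays, and Orai3, a calcium channel gene (-0.15 against DMSO and 0.07 against KSR medium). Of the 11 genes it names for SB only, drawn up in the same way, 6 had p under 0.05 before adjustment. Of these 11, 0 were called against DMSO and 1 was called against both controls (Tfap2c, lower). Over all 15967 genes 6 were called against DMSO and 812 had p under 0.05 before adjustment. Against both controls 15 of all genes were called higher and 2 lower. Bcar3 and Nphs1, both of the list for SB only, had changes of 0.38 and 0.35 (adjusted p = 0.485 and 0.255). In both, all 4 Activin arrays lay above all 4 DMSO arrays, as for 1.24% of all probes. Bcar3 is an adaptor gene of integrin signaling, and Nphs1 encodes nephrin, a cell adhesion protein.

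The genes beside Lefty1 and Lefty2 on chromosome 1 were also measured. By order along the chromosome Tmem63a lies next to Lefty1 and Ephx1 beyond it, and Sde2 lies on the side of Lefty2. Tmem63a had a change of 0.49 and Ephx1, an epoxide hydrolase gene, one of 0.25 (adjusted p = 0.851). Both were higher at 4 of 4 passages, as were 6.87% of all probes. Sde2 had -0.00, Acbd3 0.10 and Nvl 0.07. With SB Tmem63a was above background on 0 of 4 arrays and at least 1.59-fold lower than in KSR medium (adjusted p = 1.36e-05), and Ephx1 had a change of -0.13 (adjusted p = 0.823).

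**Figure D5:**
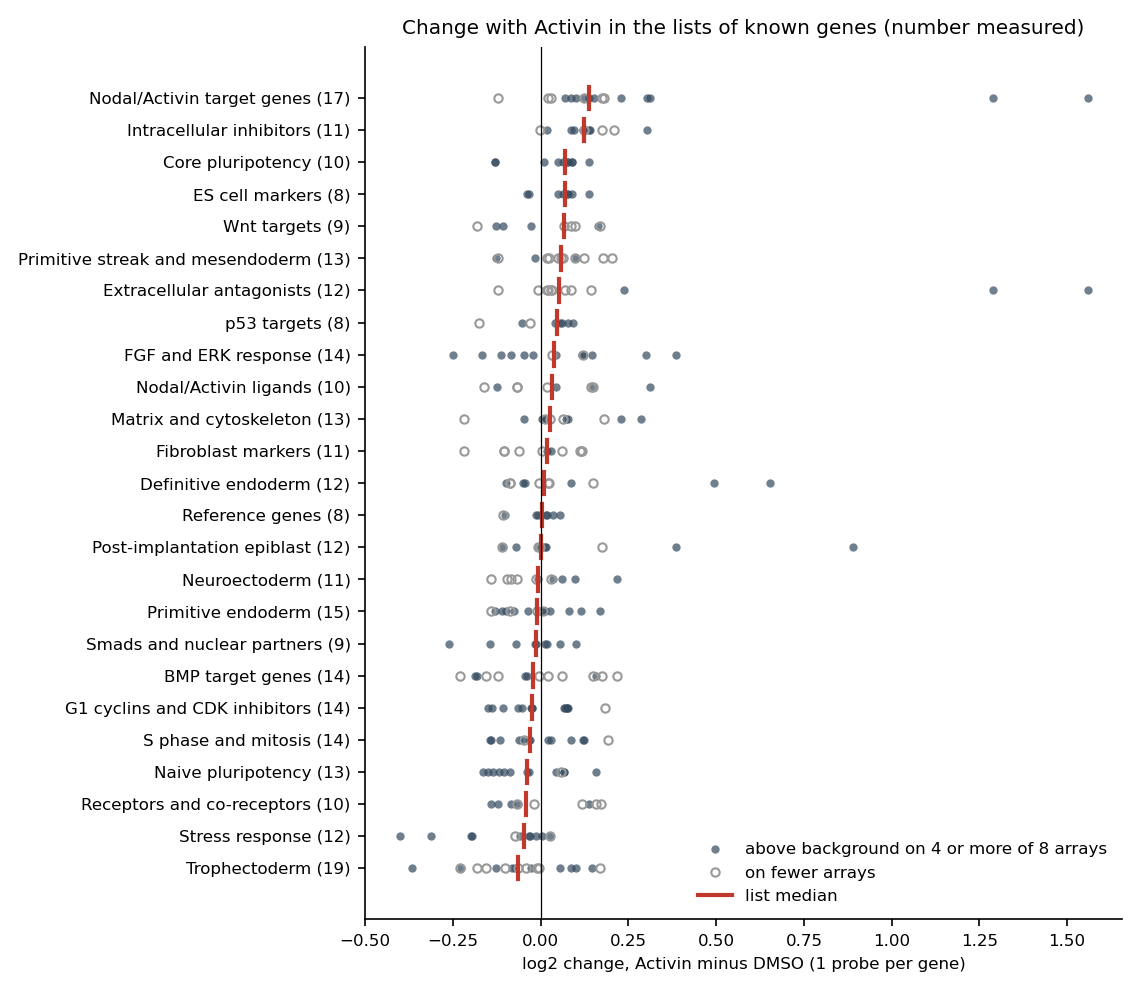
Change with Activin (log2, horizontal axis) of each measured member of the lists of known genes, 1 probe per gene, filled where it was above background on 4 or more of 8 arrays, with the list median in red. Medians run from -0.06 (trophectoderm) to 0.14 (target genes), and the members beyond 0.5 are Lefty1, Lefty2, Fgf15 and Chst15.

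Cell identity genes differed little between Activin and DMSO after the 18 h. Of 10 core pluripotency genes 8 were higher, 0 were called and 0 had an unadjusted p under 0.05. Pou5f1, which encodes Oct4, stood between 13.03 and 13.16 with Activin and between 12.81 and 13.13 with DMSO, with a change of 0.07 (-0.10 to 0.25). Nanog had 0.09 (-0.10 to 0.28) and Sox2 0.08 (-0.14 to 0.29), so a change of 1.25-fold or more lies outside each interval. Of 13 naive pluripotency genes 8 were lower and 0 were called. Klf2 and Dppa3, the latter a maternal-effect gene, had -0.14 and -0.17, each lower at 4 of 4 passages, as were 6.95% of all probes. In that list 0 had an unadjusted p under 0.05.

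Of the lineages that the pathway induces in the embryo, the primitive streak was represented by few genes above background. Of 13 primitive streak and mesendoderm genes 3 were above background on 4 or more of the 8 arrays, and 10 were higher and 0 called. Eomes, a T-box gene of the streak, had 0.10 (-0.09 to 0.29), Gsc, the organizer gene goosecoid, 0.02, and Mixl1 0.05 with 0 arrays above background. Among 12 definitive endoderm genes 6 were above background, 6 were higher and 6 lower. In this list 1 was called against DMSO (Chst15) and 2 against both controls (Chst15 and Trh). The list was chosen with earlier results of these data known. Sox17 and Foxa2, which define that layer, were at background on all 8 arrays, with -0.09 each. Among 12 post-implantation epiblast genes Fgf15 was the only call. Fgf5, the classical marker of that stage, stood at 7.75, 7.64, 7.69 and 7.88 with Activin and 7.29, 7.43, 7.17 and 7.54 with DMSO. Its 2 groups were separate (change 0.39, adjusted p = 0.249), as they were in that direction for 1.24% of all probes.

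Of 19 trophectoderm genes 14 were lower, the highest share of lower members beside that of the stress list, with a median of -0.06 and 0 called against DMSO. Tfap2c (-0.37), Igf2 (-0.23), a growth factor gene, and Cdx2 (-0.13), a trophoblast determinant, were the members above background that were lowest. BMP target genes were divided, 6 higher and 8 lower, with Id1 at -0.05 (-0.29 to 0.19) and Id3 at -0.19 (-0.35 to -0.02, adjusted p = 0.884). Against KSR medium SB raised both, by 1.77 and 0.99 (adjusted p = 5.69e-09 and 1.97e-07). Of 14 genes of the FGF and ERK response 8 were higher and 0 called. Epha2, a receptor tyrosine kinase gene, and Il17rd, which encodes the FGF antagonist Sef, had 0.39 and 0.30. Dusp4, a phosphatase gene for MAP kinases, had -0.25. Each of these extreme members had no overlap between the groups, as had 1.24% of all probes upward and 1.13% downward. Of 12 stress response genes 9 were lower and 0 called, led by Mt1 and Ddit3. The 8 reference genes lay between -0.11 and 0.06.

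The precision of the comparison sets what it could show. For the 10236 probes above background on 4 or more of the 8 arrays the median SE was 0.08 and the median half-width of the 95% interval 0.18, and 98.4% of them had a change within 0.25 of 0. The smallest change that was called was 0.41. The median change over all probes was -0.00.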

How the data were processed

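RNA of each culture was hybridized to its own Illumina MouseRef-8 BeadChip array. The deposited non-normalized intensities had been background-subtracted by the authors in BeadStudio (version not given in the sources used here) and not scaled between arrays. The deposited normalized intensities, scaled by the authors with a cross-correlation method and floored at 40, were an alternative. The intensities were corrected with normexp (saddle-point, offset 50), quantile normalized and put on the log2 scale with limma 3.58.1 in R 4.3.3. The offset compresses changes of dim probes.

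A model of 4 groups with passage as a block (9 residual degrees of freedom) was fitted to all 16 arrays (lmFit, eBayes, two-sided), with Benjamini-Hochberg adjustment over 24606 probes. The pairing comes from the passage in the labels. After group means were removed, Activin and DMSO arrays of 1 passage correlated with r from 0.184 to 0.284 (4 pairs) and those of different passages with r from -0.181 to 0.0201 (12 pairs). The block removes differences in level between passages. The cultures are passages of 1 line, so p-values measure how group differences vary from passage to passage, and not between lines. The number of arrays limits precision (median residual SD 0.124, or 0.138 without passage).

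The platform annotation gave 1 symbol to 20980 probes, several to 1 and none to 3625, naming 15967 genes. The brightest probe stood for a gene in lists. Where at most 1 array of the dimmer SB group, or no array of another dimmer group, was above background, a fold is "at least", computed after each dim value was lifted to the dimmest signal that passed on its array. Promoter windows came from RefSeq (GRCm38.p6).

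The genes named are those called against DMSO or against both controls together, the 12 largest rises and 12 largest falls above background on 4 or more of 8 arrays and of 1 sign at 4 passages, and the pathway lists; members of other lists were picked as defining or extreme members. The comparison, the 27 lists (2 of them genes the study names) and the rules were chosen with earlier results of these data known. The fit was tested on simulated data. Alternatives were the model without passage, other offsets and scalings, a filter on dim probes, array weights, an intensity trend and leaving out arrays.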

Additional observations from a re-analysis of the deposited data

Results flagged for a closer look

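In 7 of 190 groups of 4 arrays tested among the named genes, 1 array stood far from the other 3, where chance flags about 1 in 20. Irgm1 was high on the Activin array of passage 20 (7.61, the others 7.33 to 7.35) and on the DMSO array of the same passage (7.39, the others 6.79 to 6.82). Activin replicate 1 was also apart for Drap1 (11.56), and for Msmb (6.64) and Ltbp3 (6.31), both at background. Smad1 stood at 10.19 on Activin replicate 4, and Ski at 7.72 on DMSO replicate 3. None of these genes was called against DMSO.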

How the results depend on the processing

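Over 25 alternatives, Lefty2 and Spsb1 kept their calls against DMSO in all, ILMN_1220244 lost its call in 2, Lefty1 and Chst15 in 1 (a floor of 16 in place of normexp), Fgf15 in 3, ILMN_2662793 in 9, ILMN_2661386 in 19 and Zfp819 in 21. Irgm1 and Trh each passed in 2, and Fam3c and Tfap2c in 1.

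The count against DMSO (9) was 5 with no passage block and 3 with the floor, and 6 to 9 with arrays left out. The count against KSR medium (17) was 10 without the block, 6 with an offset of 16, 6 with the floor, 10 with the authors' normalized values, 27 with dim probes removed, and 8 to 18 with arrays left out. The count against both controls (27) was 12 without the block, 11 with an offset of 16, 9 with the floor, 15 with the authors' normalized values, and 9 to 26 with arrays left out. Probes over 1.5-fold (8) numbered 59 with an offset of 16, 268 with the floor, 36 with the authors' normalized values, and 6 to 11 with arrays left out; the lower offset and the floor compress dim probes less. DMSO against KSR medium stayed at 0 with arrays left out. The other causes were not tested. No gene reversed a called direction. Dim probes carry no reliable fold.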
